A study of Apis mellifera with 9 samples.

Results

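The comparison of 0.25 mM quercetin with the control diet rests on 6 of the 9 RNA-seq libraries of a feeding experiment on honey bee (Apis mellifera) larvae. The libraries were chosen by diet label, 3 for 0.25 mM quercetin and 3 for control. Newly hatched larvae from a university bee yard were grafted into culture wells, 10 to 12 per diet in each replication, and collected after 3 days. Treated larvae received 0.25 mM quercetin in a semi-artificial food of royal jelly, glucose, fructose and yeast extract, and control larvae received the same food without quercetin. Both diets therefore share royal jelly, which may bring plant compounds of its own that were not measured here. The labels give neither strain nor colony, and they do not say how many larvae went into 1 library. They name whole larvae as the source and midguts in the RNA extraction, and the tissue could not be checked against marker genes because the features carry no gene names.

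Quercetin is a flavonol that bees take up with pollen, nectar and honey, so it reaches both larvae and adults in ordinary food. Insects clear such compounds with cytochrome P450 enzymes, transferases that attach glutathione or sugars, and membrane transporters, and in the honey bee P450 enzymes have been shown to metabolise quercetin. The gut is a main site of this detoxification and of the digestion of royal jelly proteins. The feeding design asks which larval transcripts differ when quercetin is added to the diet. The counts are listed for 15314 features under GB identifiers, of which 0 matched the reference gene table, so none of the gene lists on detoxification, immunity, nutrition or tissue markers could be counted. The results below describe how many features changed, by how much, at which abundance and in which library, and print 4 identifiers.

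The 6 libraries held between 34456449 and 42874091 counts on features. The 3 columns of 0.25 mM share 1 heading and are called libraries a, b and c in table order, as names only. Library a stood apart from b and c. The root mean square difference in log2 CPM (counts scaled to library size, with TMM factors) was 0.494 between a and b and 0.469 between a and c, against 0.332 between b and c. Pairs of controls differed by 0.276 to 0.332. Library a lay nearer to the controls, at 0.37 to 0.426, than to b or c, whereas b and c lay 0.615 to 0.666 from the controls. Results are therefore given library by library or with a value from the fit without library a, an alternative that was partly chosen after the data were seen. Reads on features made up 66.4%, 66.7% and 66.5% of all reads in a, b and c, against 65.6% in each control. Reads outside any feature made up 12.9%, 12.2% and 12.1%, against 13.8%, 13.2% and 13.8%, and ambiguous reads 3.36%, 3.04% and 3.03%, against 3.58%, 3.56% and 3.52%. The diets did not overlap in any of these 3 shares (p = 0.1 each by an exact permutation test, two-sided, the lowest possible), and their part in the results was not tested.

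Larvae fed 0.25 mM quercetin differed from control larvae in a wide set of features, mostly by less than 2-fold. Of 11393 features tested, 1224 rose, which is 10.7% of them, and 1072 fell, which is 9.41% (quasi-likelihood F test in edgeR, called at a Benjamini-Hochberg adjusted p under 0.05). Both directions together made up 20.2%. The median change was 1.54-fold among features that rose, with quartiles of 1.38 and 1.81, and 1.47-fold among those that fell, with quartiles of 1.33 and 1.72. Changes under 1.5-fold accounted for 535 of the features that rose and 586 of those that fell. Between 1.5-fold and 2-fold lay 504 and 348 features, between 2-fold and 4-fold 172 and 124, and at 4-fold or more 13 that rose and 14 that fell. Without library a the median was 1.48-fold among 3016 features that rose and 1.44-fold among 3322 that fell, with 1601 and 1881 under 1.5-fold and 19 and 61 at 4-fold or more. In these bulk samples, a change in the share of a cell type and a change in RNA per cell cannot be told apart.

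The number of calls depended on which libraries were in the fit. The fit without library a called 6338 features, 3016 higher and 3322 lower. Without library b the count was 22, without library c 1, and without control 1, 2 and 3 it was 0, 0 and 1. At an unadjusted p under 0.05 the fits without control 1 and control 2 still held 4008 and 3395 features. All adjusted p-values in the fit of the 6 libraries lay at or above 0.018, so that no feature passed at 0.01. The balance of the directions depended on the scaling. TMM factors made 53.3% of the calls higher, and library totals without composition factors made 28.1% higher, with 875 higher and 2239 lower. The median log2 change over all features was 0.0096 with TMM factors and -0.07 with library totals.

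**Figure D1:**
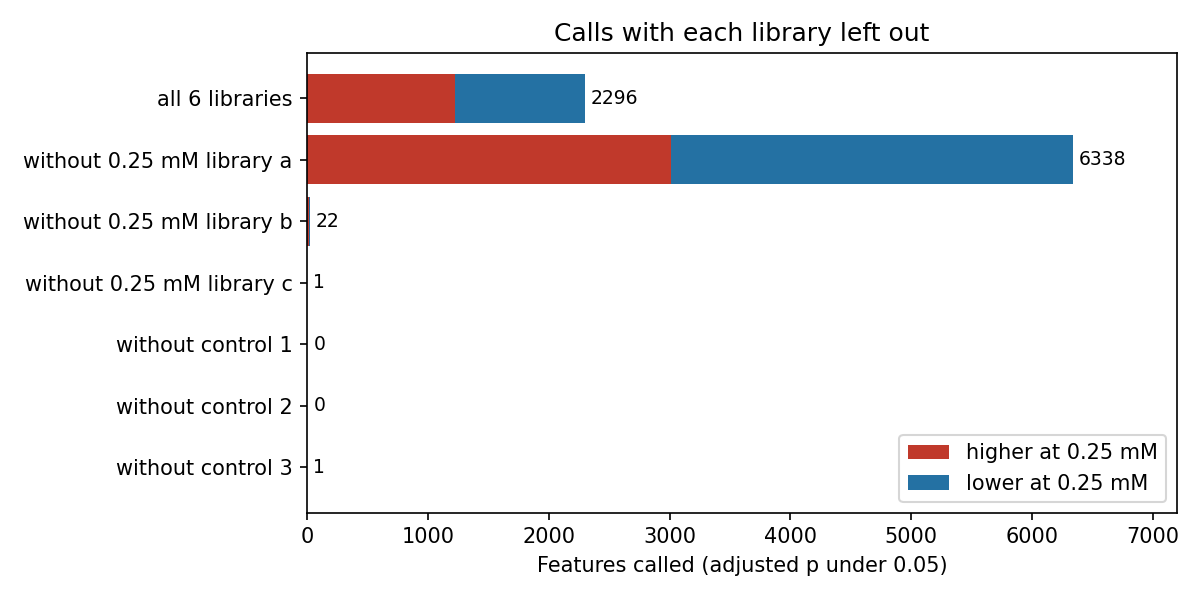
Number of features called at 0.25 mM quercetin against control, split into higher and lower, for the fit of all 6 libraries and for fits that leave out 1 library each. The call count is 2296 with all libraries, 6338 without library a and at most 22 without any other single library.

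The diets did not overlap in nearly all called features. Of the 1224 features that rose, 1223 had all 3 libraries of 0.25 mM above all 3 controls, and of the 1072 that fell, 1071 had them below. The calls were made in these same libraries, so this separation is largely fixed by the calls and adds no support to them. Over all features tested, 22.2% had every 0.25 mM library above every control and 24.4% below. That left 1306 features above and 1704 below that were separated between the diets without passing the test. Among the 9097 features not called, the 95% interval of the change excluded a 2-fold difference in either direction for 7505, or 82.5%, and without library a for 4214 of 5150, or 81.8%. For the other 1592 a 2-fold difference was not excluded at this number of libraries.

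**Figure D2:**
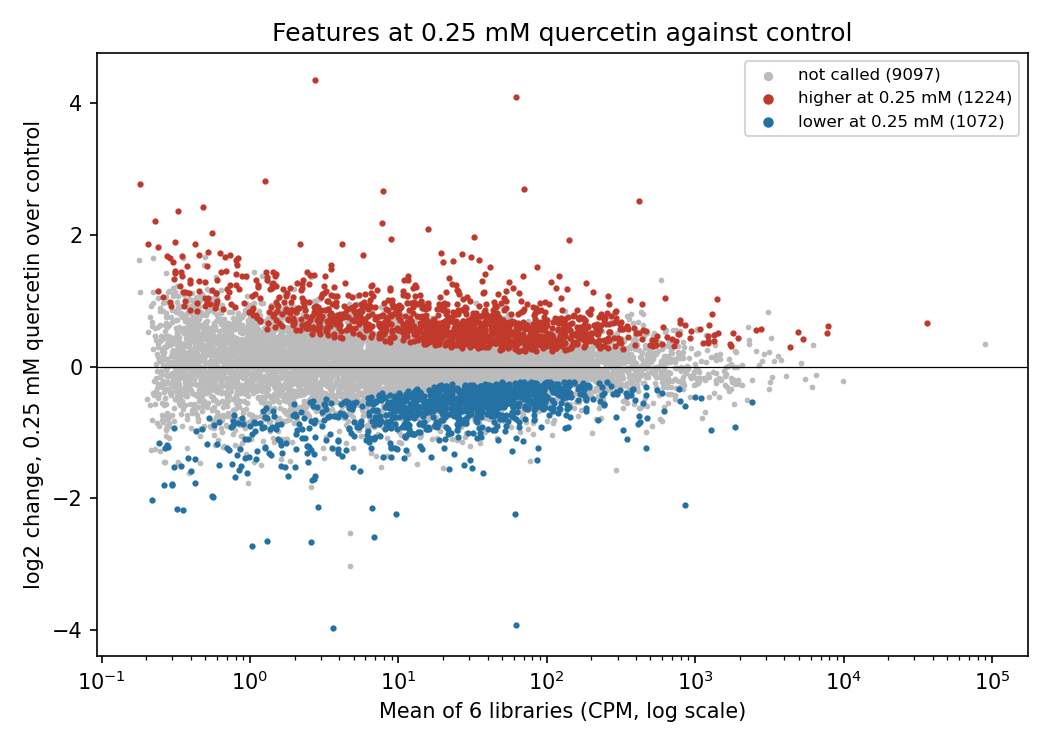
Each point is 1 of 11393 features, with its mean CPM over the 6 libraries on a log axis and its fitted log2 change, 0.25 mM quercetin over control, on the vertical axis. The 1224 features called higher and the 1072 called lower lie at all abundances, and most changes of at least 2-fold lie under 10 CPM.

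In the fit of the 6 libraries with TMM factors, abundant transcripts that changed were mostly higher with quercetin. The classes were not counted under other scalings. Of the 123 features with a mean of 1000 CPM or more, 23 rose and 4 fell, which is 18.7% and 3.25% of those tested. Of the 1532 features between 100 and 1000 CPM, 208 rose and 113 fell. Between 10 and 100 CPM the order was the other way, with 616 that rose and 707 that fell among 5545. Of the 2843 features between 1 and 10 CPM, 303 rose and 200 fell, and of the 1350 under 1 CPM, 74 rose and 48 fell. In the fit without library a, an alternative chosen after the data were seen, the class of 1000 CPM or more held 41 that rose and 41 that fell, and the direction that prevailed with library a was not seen there.

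Among features that rose, the size of the called change was larger where abundance was lower. They had a median change of 2.42-fold under 1 CPM, 1.71-fold between 1 and 10 CPM, 1.47-fold between 10 and 100 CPM and 1.43-fold between 100 and 1000 CPM. Features that fell had medians of 2.4-fold, 1.8-fold, 1.42-fold and 1.34-fold in the same classes. At 1000 CPM or more the medians were 1.42-fold for the 23 that rose and 1.66-fold for the 4 that fell. Over all features tested, called or not, the median size of the log2 change was 0.40, 0.36, 0.24, 0.21 and 0.24 from the lowest class to the highest. Without library a it was 0.48, 0.45, 0.32, 0.27 and 0.31. The called medians also depend on how large a change must be to pass the test in each class. The median standard error of the log2 change was 0.305 under 1 CPM and 0.0949 between 100 and 1000 CPM over all features tested. In the class of 1000 CPM or more, 1 feature rose at least 2-fold and 0 fell that far, at a median standard error of 0.105.

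**Figure D3:**
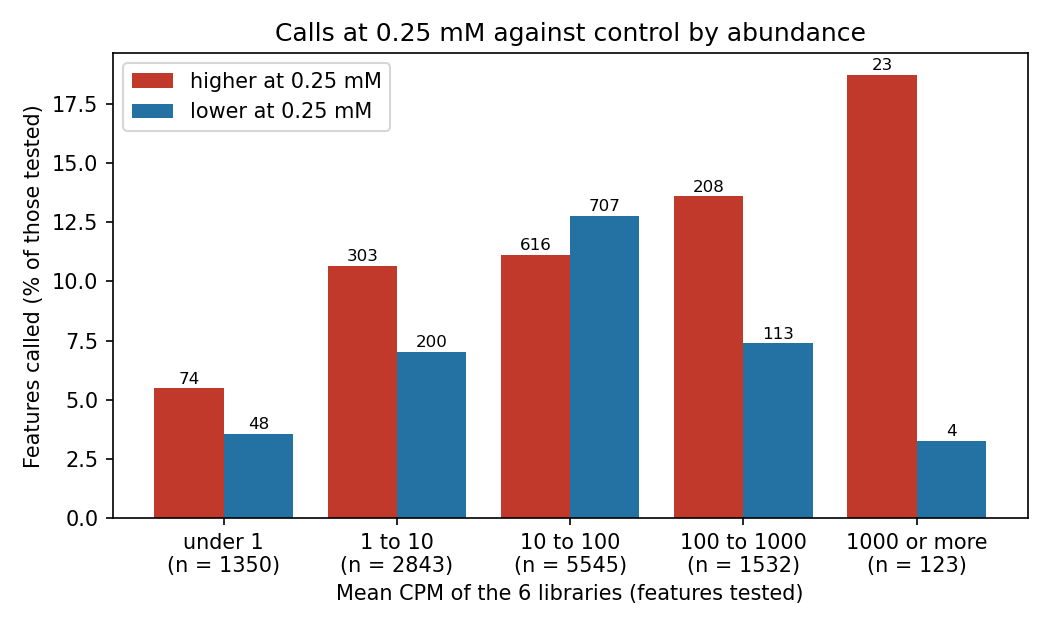
Bars give the share of tested features called higher or lower at 0.25 mM quercetin against control in 5 classes of mean CPM, with the number of calls above each bar and the number tested under it. The share called higher was 18.7% at 1000 CPM or more and 5.48% under 1 CPM.

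The 20 most abundant features took a larger part of the 0.25 mM libraries, while the next 80 took a smaller one. The 20 features ranked highest in the controls held 23.7%, 23.0% and 24.2% of feature counts in libraries a, b and c, against 19.8%, 20.4% and 20.9% in controls 1, 2 and 3. All 3 libraries of 0.25 mM lay above all 3 controls, with means of 23.6% ± 0.582 at 0.25 mM and 20.4% ± 0.537 in control (SD, n = 3 each; exact two-sided permutation test, p = 0.1, the smallest that 3 against 3 allows). Library a did not stand apart here. Of these 20 features, 6 rose and 0 fell, where 10.7% and 9.41% of all features tested did. Among features of 1000 CPM or more, 18.7% rose and 3.25% fell. The calls of the 20 were not counted in the fit without library a. The features ranked 21 to 100 held 13.8%, 13.1% and 12.9% in a, b and c, against 14.1%, 14.3% and 14.1% in the controls, again without overlap (exact two-sided permutation test, p = 0.1). These are shares of 1 total, so a gain by the 20 leaves less for all other features. The lower share of ranks 21 to 100 is therefore not independent of that gain. Whether it fell further than the gain alone would bring was not tested. Added up, the 100 highest held 36.9% ± 0.673 at 0.25 mM and 34.6% ± 0.594 in control, and the 1000 highest 69.2% ± 0.373 and 67.7% ± 0.407 (SD, n = 3 each). The feature with the highest control level held 9.26%, 9.9% and 10.2% of counts in a, b and c and 8.08%, 8.13% and 8.3% in the controls, a difference of 1.62 of the 3.22 percentage points gained by the 20, with a log2 change of 0.34 ± 0.108 (SE) that missed the threshold in this fit (edgeR, adjusted p = 0.0586). The ranking used the controls alone.

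The called features that rose together made up 18.3%, 20.2% and 20.6% of feature counts in libraries a, b and c, against 13.7%, 13.8% and 14.5% in the 3 controls. Those that fell made up 5.66%, 4.54% and 4.52% in a, b and c, against 7.6%, 7.71% and 7.5% in the controls. Most counts, 75.4% ± 0.579 at 0.25 mM and 78.4% ± 0.325 in control (SD, n = 3 each), lay in features that were not called. These shares describe features picked in the same libraries and carry no test of their own.

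Libraries b and c carried most of the size of the change. Among the 1224 features that rose, the median log2 CPM above the control mean was 0.39 in library a, 0.73 in b and 0.71 in c. Among the 1072 that fell, the median was -0.32 in a, -0.69 in b and -0.66 in c. Library a was the least changed of the 3 in 83.5% of the features that rose and in 87.7% of those that fell. Over all features tested, grouped by the sign of the fitted change, it was the least changed in 68.5% of the positive and 73.1% of the negative ones. The 3 libraries were set against the same controls, so their values are given side by side and not compared by a test.

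Library a was nonetheless outside the range of the controls in 1223 of the 1224 features that rose and in all 1072 that fell. Over all features tested, library a lay beyond the controls on the fitted side in 56.8% of those with a positive change and in 61.4% of those with a negative one. Library a belonged to the fit that made the calls, so its place among the called features is partly fixed by that choice. Fitted as the only 0.25 mM library against the 3 controls, library a gave 117 calls, of which 76 were higher and 41 lower, library b 4892 and library c 4599. In those fits the lone library was assumed to vary as the controls do.

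**Figure D4:**
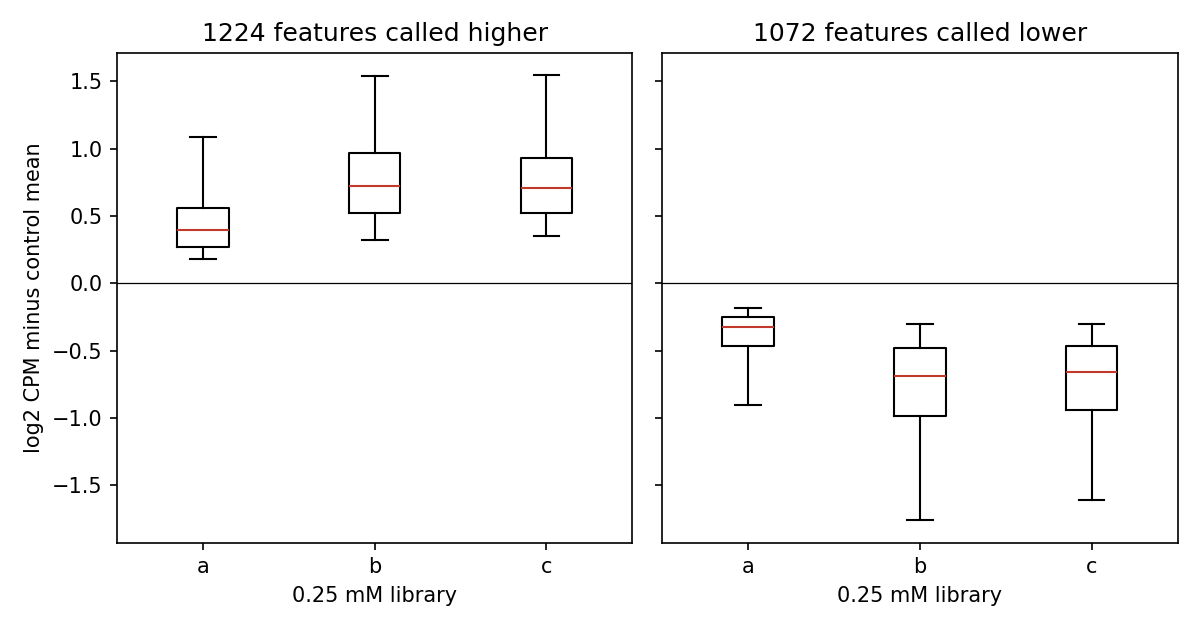
For each 0.25 mM library, boxes show log2 CPM minus the mean of the 3 controls over the 1224 features called higher and the 1072 called lower, with medians in red, quartiles as box edges and the 5th and 95th percentiles as whiskers. Library a has medians of 0.39 and -0.32, and libraries b and c lie farther from 0 in both panels.

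The spread between libraries with quercetin depended on library a. The median standard deviation of log2 CPM was 0.184 over the 3 libraries of 0.25 mM and 0.0995 over the 3 controls, across all features tested. It was larger at 0.25 mM in 70.4% of all features, in 73.9% of those that rose and in 85.8% of those that fell. For b and c alone the median was 0.0734, within the range of the 3 pairs of controls, 0.0716 to 0.0931, while it was 0.201 for a and b and 0.177 for a and c. None of these differences was tested.

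Changes of at least 2-fold were made by 323 features, of which 185 rose and 138 fell, or 1.62% and 1.21% of those tested. They were mostly minor transcripts, with a median abundance of 2.73 CPM among those that rose and 3.37 CPM among those that fell. Single features reached 1395 and 848 CPM. Of all features tested, the largest class, with 5545, lay between 10 and 100 CPM. At low abundance a larger change was needed to pass the test, so these medians depend partly on the test. Library a reached 2-fold over the control mean in 71 of the 185, library b in 168 and library c in 169. Among the 138 that fell, library a was at least 2-fold lower in 43, library b in 130 and library c in 131. All 3 libraries passed 2-fold in 54 features that rose and 33 that fell. In 12 of the 185, 1 library held over 50% of the summed CPM of the 3, library c in 8 and library b in 4. With a stricter filter of 5 CPM in at least 3 libraries, 138 features changed at least 2-fold, 80 higher and 58 lower. A test against a 1.2-fold change called 19 features, 16 higher and 3 lower, and all 19 had a fitted change of at least 2-fold.

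The features named here are the 2 in each direction with the smallest p among called changes of at least 2-fold, with no overlap between the diets and a mean of at least 1 CPM, a pool of 127 that rose and 103 that fell. GB43225-RA, the most abundant of the 4, stood at 326.5, 382 and 348 CPM in libraries a, b and c and at 159, 162 and 179 CPM in controls 1, 2 and 3. Its mean was 352 ± 28.2 CPM at 0.25 mM and 167 ± 10.5 CPM in control (SD, n = 3 each), a 2.11-fold increase with a log2 change of 1.08 ± 0.0895 (SE; edgeR, adjusted p = 0.018). Library a lay only a little below b and c in this feature, and all 3 were far above the controls. The choice by smallest p favours such a placement.

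GB42049-RA had 42.8, 56.0 and 58.9 CPM in libraries a, b and c, against 16.1, 16.8 and 18.6 CPM in the controls. It averaged 52.6 ± 8.58 CPM at 0.25 mM and 17.2 ± 1.29 CPM in control (SD, n = 3 each), 3.06-fold higher, with a log2 change of 1.61 ± 0.136 (SE; edgeR, adjusted p = 0.018). Library a was the lowest of the 3 at 0.25 mM, as in most called features that rose, and still above every control. Alone against the controls, library a gave a log2 change of 1.32, b 1.71 and c 1.78.

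GB50678-RA fell to 22.3, 22.4 and 20.1 CPM in libraries a, b and c, against 49.6, 47.2 and 40.4 CPM in the controls. The means were 21.6 ± 1.33 CPM at 0.25 mM and 45.7 ± 4.77 CPM in control (SD, n = 3 each), 2.11-fold lower, with a log2 change of -1.08 ± 0.103 (SE; edgeR, adjusted p = 0.018). The 3 libraries of 0.25 mM lay close together, library a among them, which the choice by smallest p favours.

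GB48979-RA had 6.08, 6.92 and 5.04 CPM in libraries a, b and c, against 14.2, 16.5 and 16.5 CPM in the controls. It averaged 6.01 ± 0.943 CPM at 0.25 mM and 15.7 ± 1.36 CPM in control (SD, n = 3 each), 2.62-fold lower, with a log2 change of -1.39 ± 0.144 (SE; edgeR, adjusted p = 0.018). In this feature library a lay between c and b. All 4 calls were lost without control 1, 2 or 3 and without library c, with edgeR adjusted p between 0.0631 and 0.122, while the log2 changes stayed between 1.04 and 1.67 for the increases and between -1.03 and -1.47 for the decreases.

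**Figure D5:**
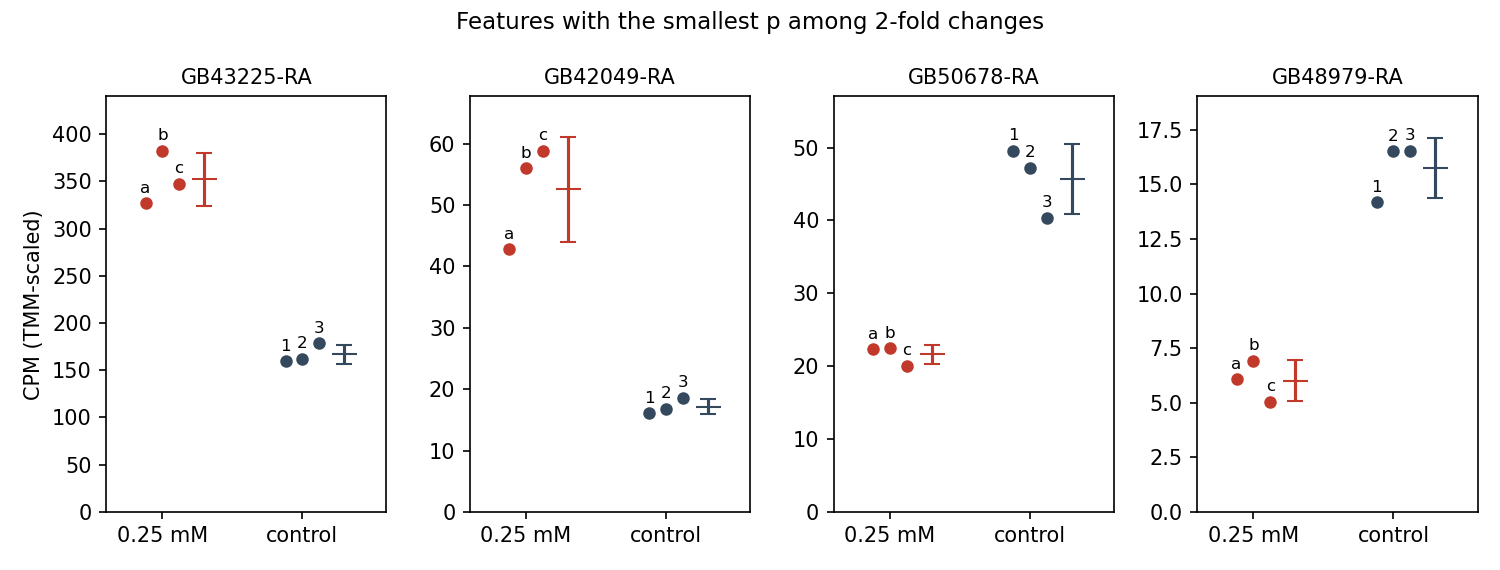
CPM of the 4 named features in each 0.25 mM library (a, b, c) and each control (1, 2, 3), with the mean and SD of 3 libraries beside the points and vertical axes that start at 0. The 4 were picked for the smallest p and for not overlapping between the diets, which favours libraries of 1 diet that lie close together. Library a is lowest of its diet in GB43225-RA and GB42049-RA, and between b and c in GB50678-RA and GB48979-RA.

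The direction of change was also set side by side for features with consecutive identifier numbers. When a feature had risen and the feature with the next number was also tested, that next feature had risen in 179 of 953 pairs, or 18.8%, and fallen in 75. Over all 9039 tested pairs, 10.3% of next features had risen. When a feature had fallen, the next had fallen in 145 of 905 pairs, or 16.0%, against 10.1% over all pairs, and had risen in 59. Without library a the same shares were 34.1% against 25.2% for increases and 39.8% against 30.7% for decreases, an alternative chosen after the data were seen. The sources used here do not say what the numbering follows. Reads listed as ambiguous, 3.03% to 3.58% per library, were kept apart from the feature counts. The line for reads without a unique alignment held 0 in every library. How reads of similar features were treated before counting is not given, and the part of shared reads was not tested.

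Runs of at least 3 consecutive numbers numbered 23 among features that rose, with 82 features, and 20 among those that fell, with 66 features. Without library a there were 155 and 255 such runs. That fit called 6338 of 11488 features, against 2296 of 11393 in the fit of the 6 libraries. More calls give more runs, so the run numbers of the fits cannot be set against each other. The number of runs expected at these shares was not computed. The longest run held 7 features that rose, with log2 changes between 0.38 and 0.99 (edgeR, adjusted p between 0.0256 and 0.0358). Their summed level was 356, 443.5 and 478 CPM in libraries a, b and c, against 273, 267 and 273.5 CPM in the controls, so library a lay between the controls and the other libraries of its diet. This run was singled out after its values were seen.

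Features with counts in 1 diet only were rare transcripts. Among all 15314 features, 304 had counts in at least 1 library of 0.25 mM and none in control, and 257 had counts in control and none at 0.25 mM, with a median sum of 1 count in either set. Of these, 23 had counts in every 0.25 mM library and none in any control, and 15 had counts in every control and none at 0.25 mM. These counts were not scaled to depth. Depth was 42874091, 40924050 and 39047388 feature counts in a, b and c, and 37298270, 34456449 and 39355227 in controls 1, 2 and 3. The numbers of features in the diets are therefore not compared. The largest sum of counts over 3 libraries was 15 at 0.25 mM and 10 in control, and 0 of these features passed the filter on low counts. A further 1481 features had no count in any of the 6 libraries. The widest fitted changes among called features were a log2 increase of 4.35 and a log2 decrease of -3.97.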

How the data were processed

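RNA from 3 libraries per diet was sequenced after TruSeq library preparation, per the labels' protocols. The authors deposited raw read counts per feature, with no normalisation and 5 bookkeeping lines. The submitters' processing notes list CASAVA 1.8, HTSeq and edgeR without roles. The sources used here do not give the aligner, build, annotation or strand setting, so overlapping and antisense features cannot be told apart and no coordinates are printed. These lines, left out of all library sizes and tests, put 12.4% of reads at 0.25 mM and 13.6% in control outside any feature on average. Ambiguous reads made up 3.14% and 3.55%, and unaligned reads 17.9% and 17.3%.

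Columns were assigned by heading, and 0 were left unused. The labels call the replications independent without naming colonies. The p-values thus set the difference between the diets only against the spread of these libraries, which may be technical. No pair within a diet agreed within counting noise (chi-square per degree of freedom 12.2 to 109.2), so none was treated as 1 library listed more than once.

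The 6 libraries were fitted alone in R 4.3.3 with edgeR 4.0.16 (filterByExpr, which kept 11393 features, TMM, estimateDisp, glmQLFit, glmQLFTest, 4 residual degrees of freedom), checked on simulated counts. The simulated counts varied alike in both diets and held no library that stood apart, so the check does not cover the case of library a. Standard errors come from the log2 change and its F statistic. Log2 CPM used a prior count of 2 and fitted changes one of 0.125. The naming rule gives 2 identifiers per direction, as stated with their values. Alternatives were other scalings, DESeq2 1.42.0, the likelihood ratio test, limma-voom (limma 3.58.1), other filters and thresholds, a 1.2-fold null, a prior count of 2, all 9 libraries, and libraries left out. The comparison, lists and tests were chosen with earlier results of these data known.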

Additional observations from a re-analysis of the deposited data

Results flagged for a closer look

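Unaligned reads lie outside the gene comparison. Their share was 17.3%, 18.0% and 18.4% in 0.25 mM libraries a, b and c, with a mean of 17.9%, above the highest control at 17.7%. The controls held 17.0%, 17.7% and 17.1%, and library a lay within their range. An exact permutation test, two-sided, gave p = 0.2, in a design of 3 against 3 libraries that cannot go below 0.1, so it says little about a difference.

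The 0.1 mM diet was not in the fit, and both named features that rose at 0.25 mM were above every control in all of its libraries. GB43225-RA stood at 234.5, 332.5 and 319 CPM in the 3 libraries of 0.1 mM, with a mean of 295.5 CPM, against at most 180 CPM in control when all 9 libraries are scaled together. GB42049-RA stood at 26.2, 36.9 and 32.6 CPM at 0.1 mM, with a mean of 31.9 CPM, against at most 18.8 CPM in control. Over all 11508 features kept in a scaling of all 9 libraries, 11.7% had every 0.1 mM library above every control. The controls are the same as those of the 0.25 mM comparison, from which these features were picked to stand clear, so nothing is read from this placement.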

How the results depend on the processing

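No paired analysis was possible because the 3 columns of 0.25 mM carry 1 shared number. The number of calls, 2296, was 3655 with DESeq2, 3471 with the likelihood ratio test, 4480 and 0 at thresholds of 0.1 and 0.01, 4099 with all 9 libraries and 19 against a 1.2-fold change. It ran from 0 to 6338 with 1 library left out, and was 117, 4892 and 4599 with only library a, b or c kept. The fits with libraries left out also have fewer samples, and the cause was not tested. The count of changes of at least 2-fold, 323, was 138 with the stricter filter, 0 at a threshold of 0.01, 19 against a 1.2-fold change, 0 to 951 with 1 library left out, and 46, 974 and 878 with only a, b or c. No feature called in the fit of the report was called in the opposite direction under any of these alternatives. The alternatives use the same or overlapping libraries in which these features were picked, so an opposite call was hardly possible. DESeq2 shared 1182 of the 1224 increases and 1050 of the 1072 decreases, and limma-voom, with 2524 calls, shared 1143 and 1067. Upper-quartile factors made 60.9% of 2368 calls higher. The rise in the share of the 20 most abundant features, 3.22 percentage points, was 2.94 to 3.53 with 1 library left out and 3.39 with features ranked over the 6 libraries. Removal of the 20 most abundant features and other scalings of the single-library medians were chosen after the data were seen, and none moved its result by over 1.5 times or beyond the spread between libraries. The 4 named features also lost their calls at a threshold of 0.01. For features under 1 CPM the median standard error of the log2 change, 0.305, limits what could be called.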

Other observations

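The named features that fell at 0.25 mM were below every control in the 3 libraries of 0.1 mM, as were 12.9% of all features kept, and they had been picked against these same controls. GB50678-RA stood at 32.7, 36.2 and 34.2 CPM in the 3 libraries of 0.1 mM, below the lowest control at 40.7 CPM. GB48979-RA stood at 6.9, 11.9 and 10.2 CPM, where the lowest control was at 14.3 CPM. The lowest of these values was near that of library b of 0.25 mM, 6.92 CPM. The value of library b comes from the scaling of the 6 libraries, and the others from the scaling of all 9.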
